A study of Mus musculus with 3 samples.

Results

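Genes of 7 families of amino acid transporters were described in 5TGM1.BRE cells, a mouse multiple myeloma line that resists the proteasome inhibitor bortezomib and engrafts in mice. Members were all gene symbols of the count tables that begin with Slc1a, Slc3a, Slc6a, Slc7a, Slc36a, Slc38a or Slc43a and a number, which gave 65 of 24467 genes. Polyadenylated RNA of 3 samples, all in 1 group, was sequenced. The cells descend from a spontaneous myeloma of C57BL/KaLwRij mice, were made resistant in culture, came from the bone marrow of such mice, and were kept in 10 nM bortezomib with 20% serum and added L-glutamine. The cells had been off the drug for 72 h or longer when RNA was taken. The cell type label of replicate 1 omits the culture in bortezomib that the other labels mention, while its title and protocols match theirs. Groups without resistance or without passage through mice were not analysed here, so no change on resistance was measured, and a single line limits how far the levels hold for other myelomas. The labels do not say that the samples were separate cultures, so each SD is a spread over 3 libraries that may be purely technical.

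Amino acid transporters are membrane proteins that carry the building blocks of protein into the cell, exchange them across the plasma membrane or release them from lysosomes. Some act alone, while others are pairs of a heavy chain, which brings the pair to the surface, and a light chain, which carries the amino acid. Plasma cells and myeloma cells secrete or synthesise much immunoglobulin and have a high demand for amino acids. Several of these genes are known targets of ATF4, a transcription factor that is translated when amino acids are scarce or the endoplasmic reticulum is stressed.

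Depth was 62303493, 45705994 and 59402218 counts for replicates 1, 2 and 3. A level is given as CPM (counts per 1000000 counts of the library) or, to compare genes, as TPM (counts per kilobase of exon, scaled so that all genes with a length sum to 1000000). Plasma cell markers were present, with 7 of 8 at 1 CPM or more in all libraries and a summed level of 4454 to 4569 CPM. The exception was Tnfrsf17, with 41, 19 and 40 counts. No marker of T and NK cells (7 genes), myeloid cells (8 genes) or stromal and endothelial cells (7 genes) reached 1 CPM, and their summed levels were 0.101 to 0.241, 0.175 to 0.505 and 0.976 to 1.20 CPM. Cd3e, Nkg7, S100a8 and S100a9 were at 0 counts. Of 6 erythroid and megakaryocyte markers, Itga2b alone reached the limit, the list summed to 15.2 to 17.6 CPM, and Hbb-bs and Pf4 were among those at 0. Because RNA came from whole cultures, fewer cells transcribing a gene and less RNA per cell cannot be told apart.

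About 1 in 3 members was expressed, and the rest were almost silent. At 1 CPM or more in all 3 libraries, 21 of 65 members counted as expressed, against 40.9% of all genes. A further 25 had some counts below that limit and 19 had none in any library. Of the 44 members below the limit, 39 had 9 counts or fewer over all libraries. A gene at 0 can still have a level of up to 0.0179 CPM, which is 3 counts over the 167411705 counts of all libraries, and this limit covers counting error only. The expressed members had a median of 20.1 TPM, and all expressed genes with a length a median of 28.6 TPM.

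**Figure D1:**
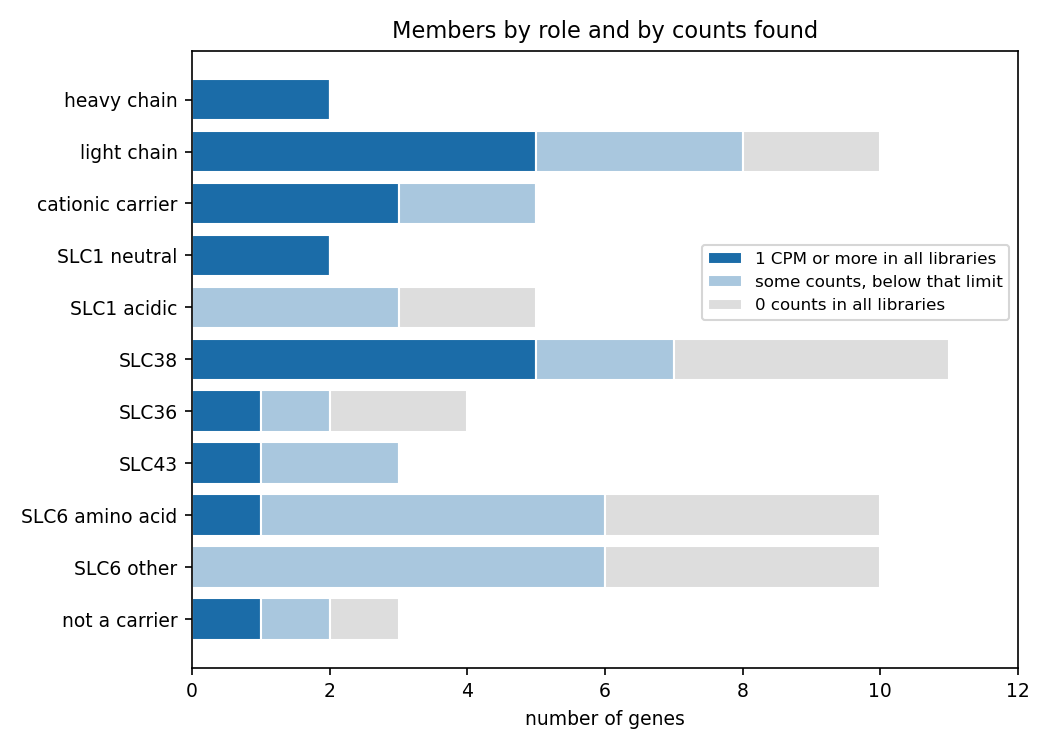
Number of member genes (horizontal axis) in each role group (vertical axis), split into genes that reached 1 CPM in each of the 3 libraries, genes with some counts below that limit and genes at 0 counts. Both heavy chain genes and both SLC1 neutral carrier genes were expressed, while none of the 5 SLC1 acidic carriers or of the 10 SLC6 carriers of amines, GABA, taurine and related compounds was.

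Expression was concentrated in a few genes. Slc3a2, Slc7a5 and Slc38a2 together held 62.2, 61.4 and 61.5% of the members' summed TPM in replicates 1, 2 and 3. The light chains contributed 34.5%, the heavy chains 26.0%, the SLC38 genes 19.3% and the SLC1 neutral carriers 13.5% of the mean sum. By mean TPM, the order was Slc3a2, Slc7a5, Slc38a2, Slc1a5, Slc38a10, Slc7a6, Slc1a4, Slc7a6os, Slc7a1 and Slc7a7. The values of neighbours overlapped between Slc3a2 and Slc7a5, Slc38a2 and Slc1a5, Slc38a10 and Slc7a6, Slc1a4 and Slc7a6os, and Slc7a1 and Slc7a7. They did not overlap between Slc7a5 and Slc38a2, Slc1a5 and Slc38a10, Slc7a6 and Slc1a4, or Slc7a6os and Slc7a1. The order and overlaps depend on the exon lengths used. With lengths of the longest transcripts Slc7a6os passed Slc1a4 (44.7 against 34.6 TPM). By mean CPM Slc38a2 came first, at 435 CPM, and Slc7a11 was at rank 8.

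**Figure D2:**
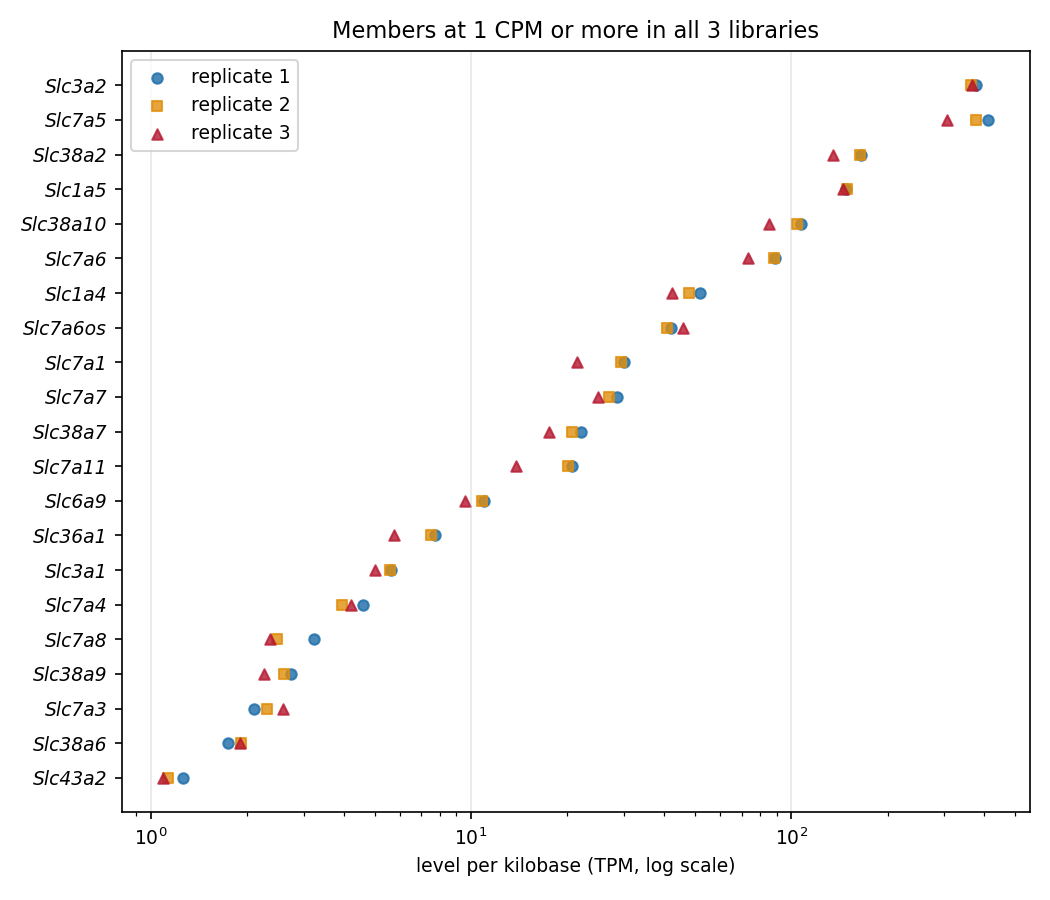
Level per kilobase (TPM, logarithmic horizontal axis) of the 21 expressed members (vertical axis, in order of their mean), with 1 symbol for each of the 3 libraries. Levels ran from a mean of 370 TPM for Slc3a2 to 1.16 TPM for Slc43a2, a span far wider than the gaps between libraries.

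Per kilobase, the heavy chain CD98 and its main light chain led the families. Slc3a2, which encodes CD98hc (chromosome 19, 8706882 to 8723369, minus strand, GRCm38), was at 378, 364 and 368 TPM in replicates 1, 2 and 3. Its 25709, 18390 and 25837 counts put it at rank 440 among all genes by mean TPM. Slc7a5 (chromosome 8, 121881150 to 121907694, minus strand) encodes LAT1, which exchanges intracellular glutamine for leucine and other large neutral amino acids. It was at 413, 377 and 306 TPM, so that replicate 3 lay below the other libraries while Slc3a2 was at nearly the same TPM in all of them. By CPM, Slc3a2 was at 413, 402 and 435, with replicate 3 the highest, so the order of its libraries depends on the scale. Slc7a5 held 74.5, 73.2 and 72.8% of the summed TPM of the 10 light chain genes.

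The other light chains were lower, in a graded order. Slc7a6, which encodes the exchanger y+LAT2 for cationic and neutral amino acids, was at 88.9, 88.4 and 73.2 TPM, and its paralog Slc7a7 (y+LAT1) at 28.6, 27.0 and 24.9 TPM. Replicate 3 was the lowest for both, but Slc7a7 did not vary beyond counting noise over the libraries (chi-square test, adjusted p = 0.285). The ranges of the paralogs were far apart. Slc7a11, which encodes xCT, the exchanger that imports cystine for glutathione and exports glutamate, was at 20.7, 20.1 and 13.8 TPM. Slc7a8, which encodes LAT2, was at 3.23, 2.47 and 2.36 TPM. Slc7a10, the light chain of the small neutral amino acid exchanger Asc-1, had 0 counts. Slc7a5 exceeded Slc7a11 20.2-fold (log2 4.34 ± 0.12, SD, n = 3) and Slc7a8 136-fold (log2 7.09 ± 0.14, SD, n = 3), and Slc7a6 exceeded Slc7a7 3.10-fold (log2 1.63 ± 0.077, SD, n = 3). Uncorrected counts put Slc7a5 5.39-fold above Slc7a11, and lengths taken from the longest transcripts 14.1-fold.

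The summed light chains of CD98 exceeded Slc3a2 itself in every library. The ratio of Slc3a2 to the sum of Slc7a5, Slc7a6, Slc7a7, Slc7a8, Slc7a10 and Slc7a11 was 0.681, 0.707 and 0.874, which is -0.42 ± 0.19 on the log2 scale (SD, n = 3), or 1.33-fold lower. Uncorrected counts made it 1.59-fold lower, and lengths taken from each gene's longest transcript 1.19-fold lower. By an exact permutation test that flips the signs of the log2 ratios (two-sided), p was 0.25 (n = 3), which is as low as 3 libraries can reach, and 0.281 after Benjamini-Hochberg adjustment over 9 ratios. Every other tested ratio except 1 had the same p, so the folds and their SDs are what these libraries give. With 3 libraries no ratio could pass 0.05.

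**Figure D3:**
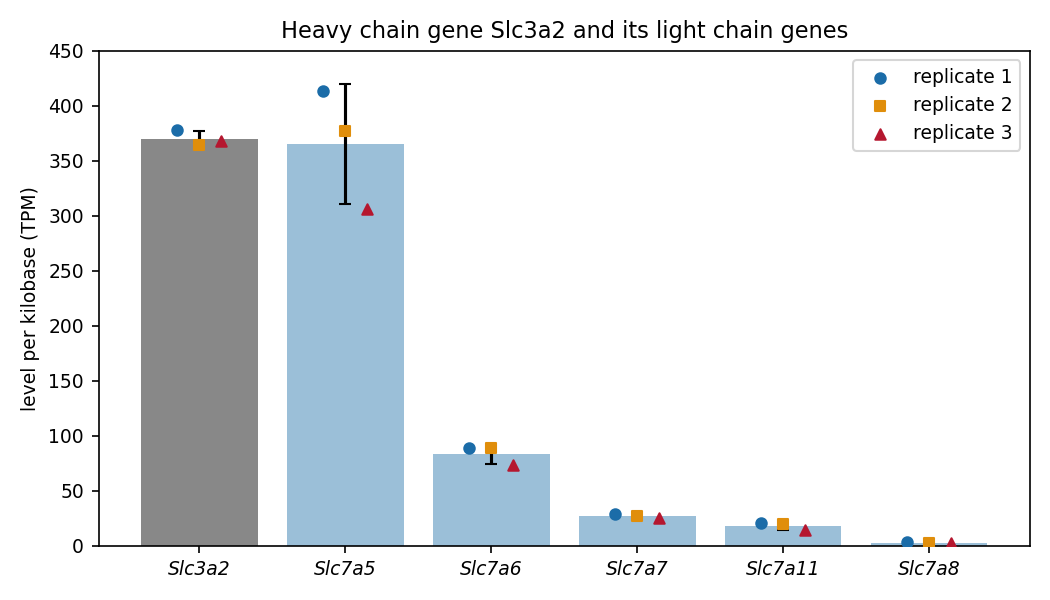
Level per kilobase (TPM, linear vertical axis from 0) of the heavy chain gene Slc3a2 (grey) and of its 5 expressed light chain genes (blue). Bars are means, error bars are SDs (n = 3) and symbols are the libraries. Slc3a2 and Slc7a5 stand alike near 370 and 365 TPM, and replicate 3 is the lowest for Slc7a5 but not for Slc3a2.

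The second heavy chain, Slc3a1, which encodes rBAT and is best known from cystine uptake in the kidney, had 246, 182 and 226 counts, or 5.61, 5.60 and 5.00 TPM. Its light chains were near 0: Slc7a9 had 11, 5 and 11 counts and Slc7a13 had 2, 2 and 0. The exons of Slc3a1 share 601 bases (26.5% of its exon length) with Prepl on the opposite strand, and Prepl was at 37.6 ± 3.60 CPM (SD, n = 3). The strand setting used for counting is unknown here, so the level of Slc3a1 is uncertain. It may lack reads of the shared stretch or include reads of Prepl, which was not tested. Slc6a20b shares 1800 exon bases with the abundant Sacm1l on the opposite strand and had 1 count, but how reads of shared stretches were counted is unknown. Slc7a12 had 0 counts and Slc7a15 had 0, 1 and 0.

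The promoters of 3 expressed members held the letters TGATGNAA, the kind of element that ATF4 binds together with a C/EBP protein. RefSeq windows (GRCm38.p6, 250 bases before to 50 after a transcript start) were in the table for 47 of the 65 members, with 68 windows. The expressed members with no entry were Slc7a5, Slc1a5, Slc7a3 and Slc7a4. TGATGNAA on either strand was found in a window of 3 of the 17 expressed members with an entry, 17.6%, and of 0 of 30 other members. The share was 4.51% of all 27018 genes with a window, and 2.63% of the 7787 genes expressed in these cells. A gene with more windows has more places for a match. By window, 4 of 26 of the expressed members held it, 15.4%, against 2.19% of the windows of expressed genes. The window of Slc3a2 (8713848 to 8714147) lies inside the gene as annotated, so the stretch before the gene's outer end was not searched. The 3 members are Slc7a11, Slc1a4 and Slc7a7. Several of the 5 windows of Slc7a7 overlap each other, and most of the 5 hold no TGATGNAA. A match describes letters only, and whether any factor binds there was not measured. For each, the 250 bases before a start and 10 after it are shown 5′ to 3′ along the gene, with the letters found in capitals. Slc38a2 is shown beside them as the member with the highest mean CPM. Its window holds no TGATGNAA but 1 TGACNNNGC, the letters of an element bound by NFE2L2, the regulator of antioxidant genes. Bases outside the windows, such as introns, were not searched in any gene.
Slc7a11 (chr3:50443604-50443863, minus strand): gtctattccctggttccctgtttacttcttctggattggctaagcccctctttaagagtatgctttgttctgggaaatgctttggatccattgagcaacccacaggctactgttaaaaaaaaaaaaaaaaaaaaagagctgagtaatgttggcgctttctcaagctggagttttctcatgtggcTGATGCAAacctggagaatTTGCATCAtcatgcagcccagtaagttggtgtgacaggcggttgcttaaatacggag
Slc1a4 (chr11:20332704-20332963, minus strand): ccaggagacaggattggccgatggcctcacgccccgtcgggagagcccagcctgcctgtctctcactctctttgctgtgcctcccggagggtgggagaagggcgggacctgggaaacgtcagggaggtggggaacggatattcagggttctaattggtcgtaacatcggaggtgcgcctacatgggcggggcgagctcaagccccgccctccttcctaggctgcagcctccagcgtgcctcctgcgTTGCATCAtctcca
Slc7a7 (chr14:54417935-54418194, minus strand): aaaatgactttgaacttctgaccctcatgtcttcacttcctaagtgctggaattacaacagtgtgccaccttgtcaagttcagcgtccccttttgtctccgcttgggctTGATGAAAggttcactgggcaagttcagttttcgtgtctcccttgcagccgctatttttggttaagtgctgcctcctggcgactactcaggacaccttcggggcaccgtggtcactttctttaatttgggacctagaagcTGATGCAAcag
Slc38a2 (chr15:96699719-96699978, minus strand): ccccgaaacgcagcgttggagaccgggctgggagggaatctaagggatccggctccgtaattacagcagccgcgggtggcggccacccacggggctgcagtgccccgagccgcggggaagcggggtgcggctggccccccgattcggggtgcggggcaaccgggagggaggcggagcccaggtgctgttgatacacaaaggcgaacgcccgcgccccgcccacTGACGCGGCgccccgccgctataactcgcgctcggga

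In Slc7a11 the matches, TGATGCAA and its reverse complement TTGCATCA, begin 66 and 47 bases before the start. In Slc1a4 the single match begins 4 bases before it, and in the window shown for Slc7a7 the matches begin 141 bases and 1 base before it. The Slc7a7 distances hold for that window only. An overlapping window with another start holds only the match nearer the start, and there it lies much farther upstream. The remaining windows of Slc7a7 hold no match. In the GENCODE annotation the stretches reach at most 12 bases into an exon of their own gene and are otherwise upstream of it, and that of Slc7a7 lies wholly upstream. The motif TGACNNNGC was found on either strand in 5 of the 17 expressed members, 29.4%, and in 5 of the 30 others, 16.7%, against 13.99% of all genes and 17.2% of those expressed in these cells. CACGTG, the E-box that Myc proteins bind, was found in 2 of 17, 11.8%, and 7 of 30, 23.3%, against 8.10% of all genes and 12.5% of those expressed in these cells. Matches of different motifs shared bases in 1 member, Slc36a1, which holds CACGTG and TGACNNNGC at its start. Windows of expressed members had a median of 15 CpG sites, those of the other members 7, those of all expressed genes 21 and all windows 7.

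Transporters of glutamine and small neutral amino acids formed the next tier. Slc1a5 (chromosome 7, 16781340 to 16798274, plus strand) encodes ASCT2, a sodium-dependent exchanger that takes up glutamine. It was at 149, 149 and 145 TPM, a spread of 2.02 TPM (SD, n = 3), with replicate 3 the lowest by TPM but the highest by CPM, at 192, 195 and 203 CPM. Its paralog Slc1a4, which encodes ASCT1 and carries alanine, serine and cysteine, was at 51.9, 48.1 and 42.4 TPM. Slc1a5 exceeded it 3.12-fold (log2 1.64 ± 0.13, SD, n = 3), or 4.64-fold when each length was that of the longest transcript.

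Slc38a2 and Slc38a1, which encode the sodium-coupled carriers SNAT2 and SNAT1, are neighbours on chromosome 15, 44478 bases apart, and differed widely. Slc38a2 (96687392 to 96699730, minus strand) had 28124, 20713 and 23721 counts, or 165, 164 and 135 TPM. SNAT2 concentrates small neutral amino acids and is known to rise when they are scarce. Slc38a1 had 21, 8 and 20 counts, or 0.0631, 0.0324 and 0.0583 TPM. Per kilobase Slc38a2 exceeded Slc38a1 3125-fold (log2 11.61 ± 0.61, SD, n = 3), and the small Slc38a1 counts set its error. Uncorrected for length the excess was 1602-fold, and by longest transcripts 1903-fold. Slc38a4, the third gene of this stretch of chromosome 15, which encodes SNAT4, had 0 counts.

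The main glutamine carriers were close in level per kilobase. Slc1a5 was at 0.901, 0.910 and 1.08 times the sum of Slc38a1 and Slc38a2, with replicate 3 on the other side of 1. The log2 ratio was -0.06 ± 0.15 per kilobase (SD, n = 3) and the exact permutation test gave p = 0.5, and 0.5 after adjustment over the 9 ratios. Without lengths Slc1a5 was 2.21-fold lower, since Slc38a2 has the longer exons, so the difference depends on the length taken.

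The other SLC38 genes ranged from abundant to silent. Slc38a10, a widely expressed family member, was at 107, 105 and 85.3 TPM, with replicate 3 the lowest. Slc38a7, which encodes a lysosomal glutamine exporter, was at 22.1, 20.7 and 17.5 TPM, and Slc38a6 at 1.74, 1.91 and 1.90 TPM. Of the remaining members of this family, Slc38a8 had 3, 4 and 2 counts, while Slc38a3, Slc38a5 and Slc38a11 had 0. Slc38a3 and Slc38a5 encode the system N carriers SNAT3 and SNAT5, which also take glutamine.

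Among the CAT-type carriers of arginine, lysine and ornithine, Slc7a1 had the highest level, below that of the exchanger gene Slc7a6 and overlapping that of Slc7a7. Slc7a1 (chromosome 5, 148327410 to 148399904, minus strand) encodes CAT1 and was at 30.0, 29.3 and 21.4 TPM. Replicate 3 lay below the other libraries, which nearly coincided. Slc7a3, which encodes CAT3 and is X-linked, was at 2.10, 2.31 and 2.59 TPM, and Slc7a4, a relative without a well-defined substrate, at 4.605, 3.954 and 4.219 TPM. Slc7a2, which encodes CAT2, the inducible carrier of macrophages and liver, had 1 count in all libraries together against 16441 for Slc7a1. Per kilobase this is a ratio of 13026, with an exact 95% binomial interval of 2338 to 514526, which covers counting error only and takes the reads of all libraries as independent. Slc7a14 had 0, 1 and 4 counts.

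Slc36a1 and Slc38a9, whose products act at lysosomes, were expressed at lower levels than the lysosomal exporter gene Slc38a7. Slc36a1, which encodes the proton-coupled carrier PAT1 of lysosomes, was at 7.71, 7.48 and 5.76 TPM, with replicate 3 the lowest. Slc38a9, whose product senses lysosomal arginine for the growth kinase mTORC1, was at 2.74, 2.61 and 2.25 TPM. Per kilobase Slc38a9 was 2.74-fold below Slc36a1 (log2 -1.46 ± 0.087, SD, n = 3), and 1.56-fold below it with the longest transcript. Without lengths the direction turned, at 0.11 on the log2 scale, so the order of these genes depends on the length correction. Slc36a4, which encodes the related carrier PAT4, had 0 counts in all libraries, at least 808-fold lower than Slc36a1 per kilobase, taking 3 counts over all libraries as the floor. Slc36a2 had 1, 2 and 1 counts and Slc36a3 had 0. Slc36a2 and Slc36a3 lie in a row with Slc36a1 on chromosome 11, all within 52641 bases of it.

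Among the sodium-independent SLC43 carriers, Slc43a2 was the only expressed gene. Slc43a2, which encodes LAT4 for branched-chain amino acids and phenylalanine, was at 1.26, 1.13 and 1.09 TPM. Slc43a1, which encodes LAT3, had 11, 2 and 4 counts and was 26.3-fold below Slc43a2 per kilobase (log2 -4.72 ± 0.96, SD, n = 3), or 46.2-fold below it without lengths. Slc43a3, whose product carries nucleobases, had 3, 0 and 5 counts.

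The neurotransmitter-type families were nearly silent. Of 20 SLC6 carriers, Slc6a9 was the only expressed gene. Slc6a9 encodes the glycine carrier GlyT1 and was at 11.0, 10.8 and 9.54 TPM, with 1088, 793 and 977 counts. Its exons share 1429 bases with Ccdc24 on the opposite strand, but Ccdc24 was at 0.372 CPM, far below Slc6a9 at 17.1 CPM. Slc6a13, the GABA carrier GAT2, had 39, 31 and 51 counts, just under the limit at 0.626, 0.678 and 0.859 CPM. Slc6a6, the taurine carrier, had 2, 1 and 0 counts and Slc6a8, the creatine carrier, had 0, so both were at or under the floor and no ratio was formed. Of the remaining SLC6 members, Slc6a2, Slc6a4, Slc6a5, Slc6a11, Slc6a16, Slc6a17, Slc6a19, Slc6a20a and Slc6a20b had 1 to 5 counts over all libraries. Slc6a3, Slc6a7, Slc6a12, Slc6a14, Slc6a15 and Slc6a18 were among those with 0.

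None of the 5 carriers of acidic amino acids was expressed. Slc1a1, which encodes the glutamate and cysteine carrier EAAT3, had 42, 30 and 41 counts, or 0.674, 0.656 and 0.690 CPM. It shares 2631 exon bases with 4430402I18Rik on the opposite strand, which had 29, 15 and 34 counts, so its few counts are uncertain. The glial glutamate carriers Slc1a2 and Slc1a3 had 3, 0 and 3 and 1, 0 and 3 counts, and Slc1a6 and Slc1a7 had 0.

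Of the 65 members, 3 are not carriers but carry a neighbour's name. Slc7a6os, a protein-coding gene 2010 bases from Slc7a6 on chromosome 8, was at 42.1, 41.0 and 45.9 TPM, while Slc36a1os had 0, 0 and 1 counts and Slc6a19os had 0. Slc7a6 and Slc7a6os were the only one of 16 pairs of members within 100000 bases of each other in which both genes were expressed. In 4 pairs 1 gene was expressed and in 11 neither was. Some genes belong to more than 1 pair, and neighbouring pairs of all genes were not counted, so these numbers are a description only. The opposite-strand partner of Slc6a20b, Sacm1l, was at 154 CPM. Slc7a7 shares 232 bases with Oxa1l, at 21.4 CPM, and Slc7a4 554 bases with P2rx6, which had 0 counts.

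Amino acid carriers outside these families were expressed in 13 of 21 cases, against 40.9% of all genes. The highest by TPM were Sfxn1, the mitochondrial serine carrier, at 61.12 ± 4.402 TPM, Slc25a44, a mitochondrial carrier of branched-chain amino acids, at 51.8 ± 6.22 TPM, and Slc25a12, a mitochondrial aspartate and glutamate carrier, at 49.3 ± 6.57 TPM (SD, n = 3 for each). Slc25a13, the paralog of Slc25a12, had 0 counts. Of the lysosomal exporters, Ctns, for cystine, was at 13.5 ± 0.553 TPM and Pqlc2, for cationic amino acids, at 6.05 ± 0.447 TPM (SD, n = 3 for each). Slc16a10, an aromatic amino acid carrier, had 1 count.

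The genes that sense amino acids were nearly all expressed. Of 29 genes that signal amino acids to mTORC1, 28 were at 1 CPM or more in all libraries, against 40.9% of all genes. The exception was Rragb with 0, 1 and 2 counts. The lists were picked by hand, so such counts describe the listed genes only. Sesn2, the leucine sensor that is also an ATF4 target, was at 53.6 ± 10.4 TPM, and Gatsl3, the older symbol of the arginine sensor Castor1, at 3.51 ± 0.946 TPM (SD, n = 3 for each). A list of 11 genes of the response to uncharged tRNA and of transcription factors was expressed in full, against the same 40.9% of all genes. Nfe2l2 and Bach1, described below, are among the 11. Atf4 was at 909 ± 41.4 TPM, Atf5 at 319 ± 5.56 TPM and Eif2ak4, the kinase GCN2, at 20.1 ± 3.34 TPM (SD, n = 3 for each). Nfe2l2, which together with ATF4 is known to activate Slc7a11, was at 81.9 ± 2.63 TPM, and its antagonist Bach1 at 61.9 ± 11.3 TPM (SD, n = 3 for each).

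Of 17 enzymes that use imported amino acids, 12 were expressed, against 40.9% of all genes. Asns, asparagine synthetase, was at 527 ± 31.2 TPM (SD, n = 3). Glul, glutamine synthetase, had 0, 1 and 12 counts, so most of its few counts came from replicate 3. Gclc and Gclm, the subunits of the enzyme that starts glutathione synthesis from cysteine, were at 67.5 ± 7.78 and 35.9 ± 1.92 TPM (SD, n = 3 for each). Arg2 had 0, 2 and 1 counts, and Ckb and Gatm, of creatine metabolism, had 0, 1 and 1 and 3, 2 and 13. Of 7 regulators of carrier proteins, 6 were expressed, against the same share of all genes. The exception was Nedd4l with 5, 3 and 4 counts, while its paralog Nedd4 was at 140 ± 32.8 TPM (SD, n = 3).

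The expressed members differed little between libraries, and fewer varied beyond counting noise once replicate 3 was left out. Their coefficient of variation in CPM had a median of 7.76% and ran from 2.41% for Slc3a1 to 17.1% for Slc7a11, against a median of 7.31% over all genes with a mean of at least 1 CPM. Of the 25 members with at least 20 counts, 14, or 56.0%, varied beyond counting noise by a chi-square test over the libraries with Benjamini-Hochberg adjustment at 0.05 over all genes, and so did 59.5% of all genes. Without replicate 3 this fell to 1 of 24 members, Slc7a5, and to 8.72% of all genes. The test compares these libraries and takes counts as independent, which PCR copies are not.

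Set against the mean of the other libraries on the log2 CPM scale, replicate 3 had a median difference of -0.13 for the 21 expressed members. For all 10147 genes with a mean of at least 1 CPM the median was -0.03. Past a log2 difference of 0.32 either way, 2 members were lower in replicate 3, against 11.3% of all genes, and 1 was higher, against 4.87%. Slc7a11 had 89.2, 87.6 and 64.6 CPM, a log2 difference of -0.45, and Slc7a1 had 107, 106 and 82.9 CPM, a difference of -0.36. The gene that was higher was Slc7a3, at 2.46, 2.73 and 3.28 CPM, with a log2 difference of 0.34, or 0.26 when set against replicate 2 alone. Replicate 1 was past that size for 1 member, Slc7a8, at 5.01, 3.87 and 3.96 CPM, and higher, against 2.66% of all genes. No member was past it in replicate 2, against 1.83% of genes higher and 0.493% lower there, or lower in replicate 1, against 2.12%. Differences between libraries are given in CPM here, since TPM lowers replicate 3 further: the members summed to 2315, 2256 and 2103 CPM and to 1538, 1473 and 1315 TPM. The labels put all libraries in 1 group, so no test between them by gene was made.

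The difference of replicate 3 moved with gene length. Over all genes, its Spearman correlation with exon length was -0.64, and over the 21 members -0.40, given as descriptions since genes within 3 libraries are not independent. Slc7a11 and Slc7a1 are among the longest members, with 13922 and 11530 exon bases, and Slc7a3 has 3784. With the trend on length over all genes removed, the median difference of the members went from -0.13 to -0.07. The log2 difference became -0.17 for Slc7a11 and -0.11 for Slc7a1, and no member was lower past that size, against 4.34% of all genes. Slc7a3 stayed at 0.35, and Slc38a6, with 7783 exon bases, went from 0.17 to 0.35. They were the 2 members higher past that size, against 3.56% of all genes. By the chi-square test over the libraries, Slc38a6 did not vary beyond counting noise (adjusted p = 0.204), and Slc7a3 was near the threshold (adjusted p = 0.0395). In replicate 1 no member was higher past it with the trend removed, against 1.82% of all genes. Slc7a5, with 3708 exon bases, kept a difference of -0.26 with the trend removed. The part of RNA quality or library preparation in this trend was not tested.

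**Figure D4:**
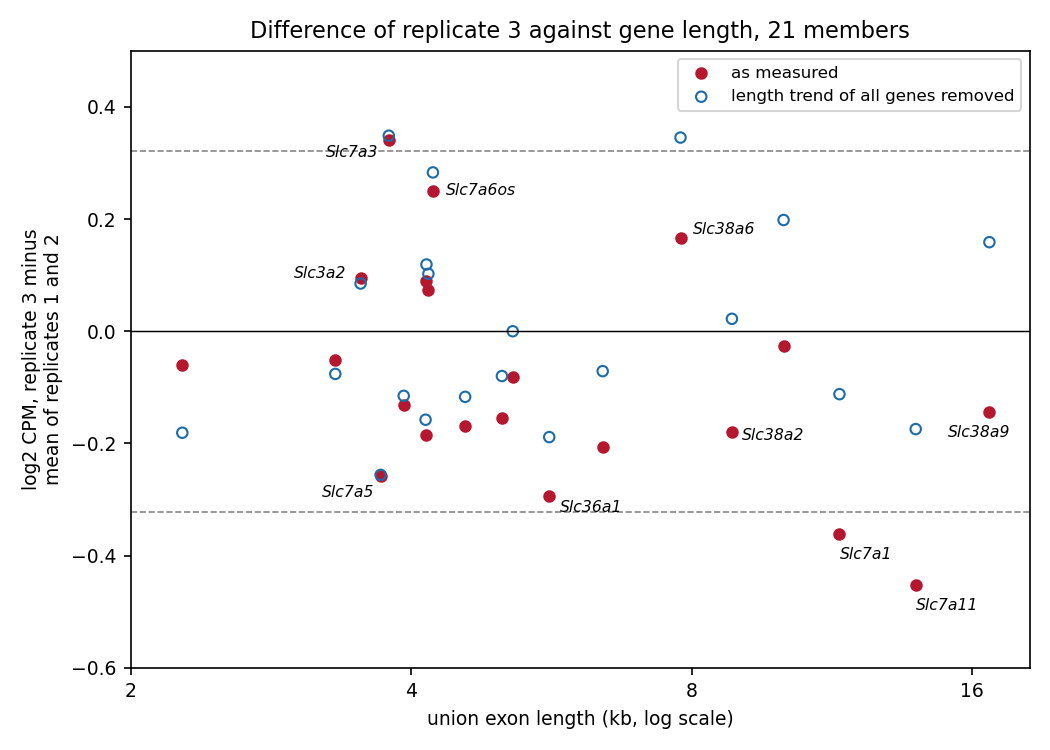
Difference in log2 CPM of replicate 3 from the mean of replicates 1 and 2 (vertical axis) against exon length in kilobases (logarithmic horizontal axis) for the 21 expressed members. Filled points are as measured, open points have the trend on length over all genes removed, and dashed lines mark a difference of 0.32. Slc7a11 and Slc7a1 lie below the lower line as measured and above it with the trend removed.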

How the data were processed

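The 3 samples of 5TGM1.BRE cells form 1 group by their titles. Raw counts, 1 deposited table a sample, are what the authors obtained with bcl2fastq, cutadapt 4.2 and STAR on the mouse genome mm10, per the submitters' processing notes. For the counting itself, program, annotation and strand were not given in the sources used here. Depth was 45705994 to 62303493 counts.

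CPM used library totals. Union exon lengths and positions are those of GENCODE M21 on GRCm38, which mm10 names too. It held 23688 of the symbols as written and 479 under another name, and 300 had no match. All 65 members matched. A chi-square test per gene over libraries took genes with at least 20 counts. The libraries differed beyond counting noise, with a chi-square per degree of freedom of 3.998 between replicates 1 and 2, 65.1 between 1 and 3 and 44.4 between 2 and 3. Replicate 3 thus stood apart from the others. All libraries were kept, and these values do not show whether they are separate cultures. Ratios were formed within libraries, and 3 of 12 set ratios had a library at 0 and no test. The length trend was removed with lowess (span 0.3). Scripts were tested on simulated data.

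Members, lists and ratios were chosen with earlier results of these data known. Named are all expressed members, all ratio members and, by counts, the other members. Other genes of the lists were named after their values were seen, as were the members of a promoter motif. Motifs were chosen after the counts were seen. Protein sequences were not used here, and some genes are not reported here. Alternatives were TMM scaling (edgeR 4.0.16), DESeq2 1.42.0 size factors, other limits and folds, no filter, other lengths and leaving out each replicate. R 4.3.3, Python 3.11.15, pandas 2.3.3, SciPy 1.17.1 and statsmodels 0.14.6 were used.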

Additional observations from a re-analysis of the deposited data

How the results depend on the processing

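The number of expressed members was 21 under TMM scaling and without each replicate, and stayed within 1.5 times of that under the other limits tried. The ratio of Slc38a9 to Slc36a1 turned from below to above 0 without a length correction (0.11 on the log2 scale), while the other 44 alternatives of the ratios kept their direction. Members varying beyond counting noise fell from 14 to 1 without replicate 3 and ranged from 1 to 15 over the libraries left out. Counts of members past a log2 difference of 0.32 in a library are small. With no filter on low counts they were 3 higher and 1 lower in replicate 1, 2 higher and 4 lower in replicate 2, and 5 higher and 5 lower in replicate 3, where the added genes have few counts. With the length trend removed they were 0 higher in replicate 1 (1.82% of all genes), and 2 higher (3.56%) and 0 lower (4.34%) in replicate 3. Past 1.5-fold, 0 members were higher in replicate 1 and 0 were higher or lower in replicate 3. Against a single other library, the counts ran from 1 to 3 higher and 0 to 1 lower in replicate 1, 0 to 2 higher and 0 to 1 lower in replicate 2, and 0 to 1 higher and 2 to 3 lower in replicate 3. Without replicate 2, the number past the fold in replicate 1 was 3 higher and 1 lower, and without replicate 1 replicate 3 had 0 higher. Depth limits what can be said of members at 0 to 3 counts. No paired analysis was possible because there is 1 group.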
